A study of Mus musculus with 24 samples.

Results

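The comparison described here asked what loss of HOIL1 did to the CD45+ cells of the ileum when the epithelium could not respond to IL-4 or IL-13. Members were chosen by the labels alone, as the CD45+ libraries of mice that carried Vil1cre, and numbered 6 of the 24 libraries of the series and of its 12 CD45+ libraries. The 3 Hoil1-/-Il4raflox/flox+Vil1cre libraries were numbers 16, 17 and 24, from mice aged 9.6, 9.6 and 9.1 weeks. The 3 Hoil1+/+Il4raflox/flox+Vil1cre libraries were numbers 20, 21 and 22, from mice aged 9.7, 9.7 and 9.0 weeks. The labels give the strain as C57BL/6 and the methods as C57BL/6J. Both groups carried the same floxed Il4ra alleles and the same Cre, and controls were co-housed littermates. Both groups are called Il4raΔIEC below, since Vil1 drives Cre in intestinal epithelial cells and not in the CD45+ cells that were sequenced. The Hoil1-/- allele is Rbck1tm1Kiwa, and Rbck1 is the gene that encodes HOIL1. It is not a complete null, since it still makes a low amount of the N-terminal part of the protein, and counts per gene do not show which exons the remaining reads cover. Live CD45+ singlets had been sorted from lamina propria cells mixed with 50% of the epithelial fraction, so the sort took in intraepithelial lymphocytes as well.

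HOIL1 forms the linear ubiquitin chain assembly complex (LUBAC) with HOIP and SHARPIN, and the linear chains it helps build carry signals from TNF, interleukin and pattern recognition receptors to NF-κB. Group 2 innate lymphoid cells (ILC2) are tissue-resident lymphocytes that release IL-5, IL-13 and amphiregulin without an antigen receptor, in response to IL-33, IL-25, TSLP and the neuropeptide neuromedin U. In the small intestine, IL-13 acts through IL-4Rα on epithelial cells to expand goblet and tuft cells, and tuft cells return IL-25 to ILC2. Removing Il4ra from the epithelium opens that loop.

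Counts assigned to genes ran from 14938629 in library 17 to 63184034 in library 22. Ptprc, which encodes CD45, was at 489 to 664 CPM (counts per 1000000 counts of the library) in 5 of the libraries and at 228 CPM in library 24. Il4ra, which the Cre leaves intact in these cells, was at 158, 206 and 248 CPM in the Hoil1+/+ libraries 20, 21 and 22, and at 258, 238 and 93.8 CPM in the Hoil1-/- libraries 16, 17 and 24. Library 24 stood apart: it had counts for 12847 genes against 15279 to 16554 in the other 5, and its log2 CPM correlated with theirs at r = 0.870 to 0.901. It was left out by the study, and results are therefore given with and without it. Both sexes were present in each group by Xist and Ddx3y. CPM values use library sizes scaled by the trimmed mean of M values (TMM), and fold changes are Hoil1-/- over Hoil1+/+ from one edgeR quasi-likelihood fit over the 12 CD45+ libraries. In library 17, the shallowest, 3 counts amount to 0.163 CPM. In sorted bulk RNA, a higher share of a cell type and more RNA per cell cannot be told apart. The labels do not say which mice shared a litter, and p-values here measure the spread between these libraries.

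Rbck1 was at 137, 133 and 115 CPM in the Hoil1+/+ libraries 20, 21 and 22, and at 13.9, 6.05 and 7.08 CPM in the Hoil1-/- libraries 16, 17 and 24. The groups were far apart, and the Hoil1 part of the genotype labels held in all 6 libraries, library 24 included. The Il4ra and Vil1cre part of the labels was not tested by these counts. Rbck1 (chromosome 2, positions 152316334 to 152332653, minus strand, GRCm38) fell by 3.83 on the log2 scale (SE 0.40; adjusted p = 0.0112, edgeR quasi-likelihood). It was the single gene of 16060 tested that passed an adjusted p of 0.05, which is 0.00623% of them. No gene was called higher (0.0%), while 346 genes (2.15%) were higher and 373 (2.32%) lower at an unadjusted p under 0.05, or 4.48% in all. Without library 24, edgeR called 0 of 17074 genes, Rbck1 included (log2 fold change -3.71; adjusted p = 0.126), with 733 genes (4.29%) at an unadjusted p under 0.05. Other tests of the same contrast called more genes, with 11 (0.0685%) called by edgeR's exactTest, 21 (0.131%) by its likelihood ratio test and 97 (0.652%) by DESeq2. Of these calls, 8, 12 and 64 were of lower genes, Rbck1 included. Each test called the lower genes Cdhr5, Muc3 and Ap1m2 and the higher genes Ccl24, Il1rl1 and Klrg1. The likelihood ratio test and DESeq2 also called Nmur1 and Il5 higher. Every gene named below other than Rbck1 had an adjusted p of 0.479 or above in the quasi-likelihood fit, so its values are a description of 3 mice against 3. The median log2 fold change over all genes was -0.02, against which the medians of gene lists below can be read.

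**Figure D1:**
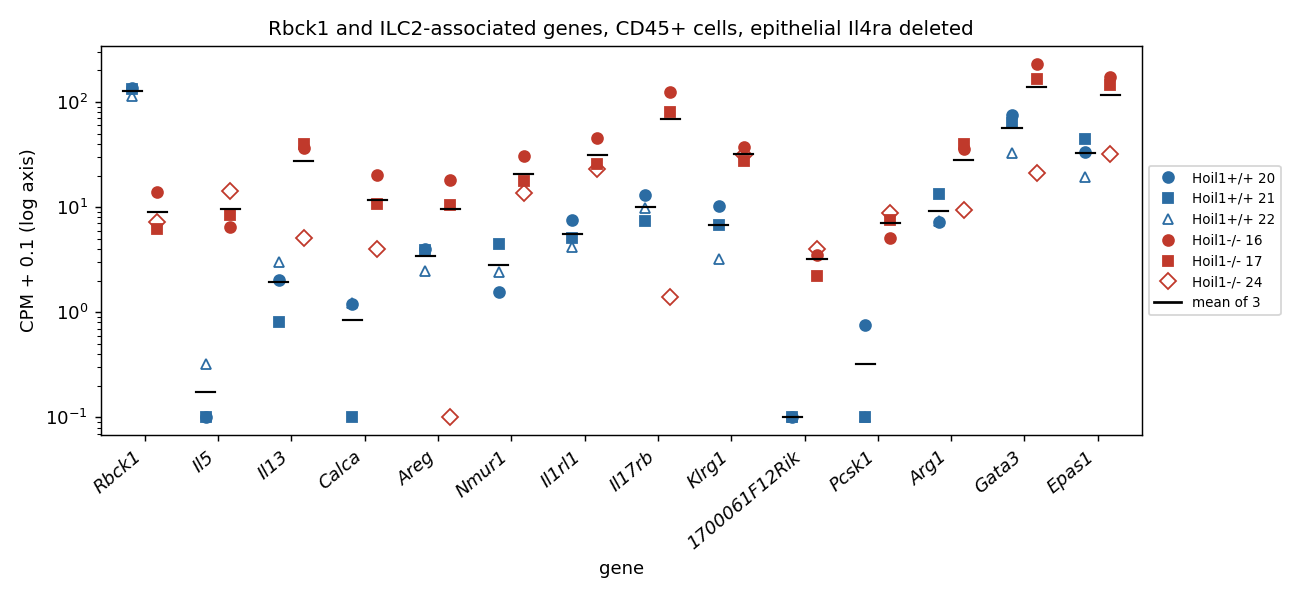
CPM (plus 0.1, log axis) of Rbck1 and of genes associated with ILC2 in each of the 6 CD45+ Il4raΔIEC libraries; blue symbols are Hoil1+/+, red are Hoil1-/-, and bars are means of 3. Rbck1 is lower in each Hoil1-/- library, while Il5, Nmur1, Il1rl1 and Klrg1 are higher in each, and library 24 (open diamond) lies below the Hoil1+/+ range for Areg, Il17rb and Gata3.

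The type 2 cytokine genes Il5 and Il13 were higher in the CD45+ cells of each Hoil1-/-Il4raΔIEC mouse. Il5, the growth factor of eosinophils, had no count in Hoil1+/+ libraries 20 and 21 and was at 0.220 CPM in library 22, against 6.34, 8.39 and 14.1 CPM in Hoil1-/- libraries 16, 17 and 24. Library 24 held the highest Il5 level of all, and the groups did not overlap (log2 fold change 6.90, SE 1.76; unadjusted p = 0.00304, edgeR quasi-likelihood). Il13, which drives goblet cell and smooth muscle responses, was at 1.93, 0.717 and 2.92 CPM in Hoil1+/+ and at 36.8, 40.1 and 5.05 CPM in Hoil1-/- libraries (log2 fold change 3.87, SE 1.38). Here library 24 was just above the highest control, far below libraries 16 and 17. Calca, which encodes the neuropeptide CGRP that ILC2 can also make, was at 1.11, 0 and 1.13 CPM in Hoil1+/+ and at 20.4, 10.6 and 3.91 CPM in Hoil1-/- libraries.

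Il4 and Areg differed between library 24 and the other 2 Hoil1-/- libraries. Il4 was at 3.40, 1.62 and 2.79 CPM in Hoil1+/+ libraries and at 13.1 and 14.7 CPM in Hoil1-/- libraries 16 and 17, with no count in library 24. Areg, which encodes the repair factor amphiregulin, was at 3.87, 3.80 and 2.35 CPM in Hoil1+/+ libraries and at 17.985 and 10.3 CPM in libraries 16 and 17, again with no count in library 24. Both were therefore higher in 2 of 3 Hoil1-/- libraries. Csf2 was at 6.03, 6.14 and 1.89 CPM in Hoil1+/+ and at 0.879, 1.96 and 0 CPM in Hoil1-/- libraries, so the cytokines of the list did not all lie in one direction. Il9 and Il3 had no count in any of the 6 libraries, and 3 counts over a library, the limit used here for a gene not seen, correspond to between 0.0432 and 0.163 CPM. Of the 6 tested type 2 cytokines, 3 were higher without overlap between groups, where 4.88% of all genes tested were (11.4% in either direction), and the list's median log2 fold change was 2.85, or 3.36 without library 24.

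Receptors through which ILC2 sense their surroundings were split between a few genes with large differences and others with small ones. Il1rl1, the IL-33 receptor ST2, was at 7.47, 4.99 and 4.08 CPM in Hoil1+/+ and at 45.7, 25.7 and 22.9 CPM in Hoil1-/- libraries. All 3 Hoil1-/- libraries lay above all controls (log2 fold change 2.51, SE 0.49; unadjusted p = 0.000289, edgeR quasi-likelihood), and the exactTest and likelihood ratio test called it. Nmur1, the neuromedin U receptor that marks ILC2 in the gut, was at 1.45, 4.40 and 2.30 CPM in Hoil1+/+ and at 30.7, 17.5 and 13.6 CPM in Hoil1-/- libraries (log2 fold change 2.93, SE 0.68). Calcrl, the receptor of CGRP, was at 8.09, 8.64 and 4.62 CPM against 10.3, 17.5 and 20.3 CPM. It too did not overlap, but its difference was smaller (log2 fold change 1.17, SE 0.47).

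Il17rb, the IL-25 receptor, followed another pattern. It was at 12.9, 7.36 and 9.64 CPM in Hoil1+/+ libraries and at 126 and 79.7 CPM in Hoil1-/- libraries 16 and 17, yet at 1.29 CPM in library 24. Library 24 was thus below every control for the IL-25 receptor while above every control for the receptors of IL-33 and neuromedin U. The log2 fold change of Il17rb was 2.79 (SE 1.17) with library 24 and 3.34 without it. Other shared receptors varied with the library more than with genotype: Il7r was at 86.8, 114 and 49.1 CPM against 106, 97.2 and 4.34 CPM, and Icos at 54.2, 62.3 and 15.6 CPM against 45.5, 60.6 and 8.69 CPM. Of the 20 receptors tested, 5 were higher and 0 lower at an unadjusted p under 0.05, where 2.15% and 2.32% of all genes were, and 3 were higher without overlap, where 4.88% were. Without library 24, 4 were higher at an unadjusted p under 0.05 and 8 without overlap, where 15.0% of all genes were, and the median log2 fold change moved from 0.15 to 0.32.

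Surface and effector genes of ILC2 added several with no overlap. Klrg1, a lectin receptor of mature and inflammatory ILC2 and of effector T cells, was at 10.1, 6.70 and 3.09 CPM in Hoil1+/+ and at 37.2, 27.7 and 31.2 CPM in Hoil1-/- libraries (log2 fold change 2.27, SE 0.50; unadjusted p = 0.000722, edgeR quasi-likelihood). The transcript 1700061F12Rik (chromosome 2, positions 9189515 to 9197477) had no count in any Hoil1+/+ library and was at 3.39, 2.12 and 3.91 CPM in Hoil1-/- libraries, at least 178-fold higher when 3 counts over the control group are taken as the floor. Pcsk1, a prohormone convertase, was at 0.662, 0 and 0 CPM against 4.99, 7.41 and 8.73 CPM. These 3 genes had library 24 within or above the range of libraries 16 and 17.

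Ly6a, the stem and activation antigen Sca-1, was at 18.3, 14.1 and 34.3 CPM in Hoil1+/+ and at 59.1, 41.1 and 168 CPM in Hoil1-/- libraries, and its log2 fold change dropped from 2.01 to 1.15 without library 24. Alox5, the 5-lipoxygenase of leukotriene synthesis, was at 12.8, 7.98 and 23.8 CPM against 49.3, 32.8 and 36.8 CPM. Arg1, the arginase of ILC2 and alternatively activated macrophages, was at 7.18, 13.1 and 7.24 CPM against 36.1, 39.5 and 9.35 CPM, so that library 24 fell within the control range. Thy1 and Cxcr6, which T cells also express, were not higher, with log2 fold changes of -0.93 (SE 0.61) and -0.91 (SE 0.63). Of the 20 members of this list, 6 were higher and 0 lower at an unadjusted p under 0.05, against 2.15% and 2.32% of all genes, 5 were higher without overlap, against 4.88%, and the median was 0.96. Leaving out library 24 gave 8 higher at an unadjusted p under 0.05, 11 higher without overlap, against 15.0% of all genes, and a median of 1.18.

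Transcription factors of the lineage showed no common direction with library 24 counted. Gata3, which ILC2 and T helper 2 cells need, was at 75.3, 62.9 and 32.5 CPM in Hoil1+/+ libraries and at 232 and 166 CPM in Hoil1-/- libraries 16 and 17, but at 21.02 CPM in library 24. With library 24 inside the fit, its log2 fold change was 1.30 (SE 0.90), and without it 1.78. Epas1, which encodes HIF-2α, was at 33.2, 44.6 and 19.4 CPM against 173, 147 and 32.2 CPM (log2 fold change 1.86, SE 0.71). Tcf7, a factor of early innate lymphoid and naive T cells, was at 119, 171 and 96.5 CPM against 88.8, 89.6 and 27.6 CPM, the 1 factor of 20 that was lower without overlap, where 6.54% of all genes were. Maf and Pparg, with log2 fold changes of 0.51 (SE 0.27) and 0.70 (SE 0.62), were the 2 that were higher without overlap, where 4.88% of all genes were. The median of the 20 factors was -0.11, or 0.17 without library 24. Leaving it out, 8 were higher without overlap, where 15.0% of all genes were, and 1 was lower.

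The 6 genes that the study singled out in CD45+ cells of both Il4ra backgrounds were Nmur1, 1700061F12Rik, Klrg1, Il5, Il17rb and Epas1. Each was higher here at an unadjusted p under 0.05 (2.15% of all genes), and 4 of them did not overlap (4.88%). These were chosen on libraries that include the present ones, so their direction is not independent evidence. All 6 were non-overlapping once library 24 was left out, where 15.0% of all genes were, and their median log2 fold change was 2.86 with it and 3.23 without.

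The bases upstream of 4 genes whose Hoil1-/- libraries all lay above the controls are shown to give their regulatory context, from RefSeq on GRCm38.p6. Each run is the 250 bases before the annotated start, 5′ to 3′ on the strand of the gene. Capitals mark AGATAA or its reverse complement TTATCT, a form of the site read by GATA factors such as GATA3. They also mark TTC and GAA with 4 bases between them, the spacing read by STAT6, which IL-4 and IL-13 activate. Other forms of the GATA site were not searched for, so a window without these letters can still hold such a site.
Il5 (chr11:53720544-53720793, plus strand): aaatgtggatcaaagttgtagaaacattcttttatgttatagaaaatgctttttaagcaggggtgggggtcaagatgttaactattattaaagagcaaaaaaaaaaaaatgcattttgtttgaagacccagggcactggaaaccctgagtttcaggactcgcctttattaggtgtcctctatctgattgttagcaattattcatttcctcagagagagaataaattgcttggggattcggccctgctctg
Il13 (chr11:53634703-53634952, minus strand): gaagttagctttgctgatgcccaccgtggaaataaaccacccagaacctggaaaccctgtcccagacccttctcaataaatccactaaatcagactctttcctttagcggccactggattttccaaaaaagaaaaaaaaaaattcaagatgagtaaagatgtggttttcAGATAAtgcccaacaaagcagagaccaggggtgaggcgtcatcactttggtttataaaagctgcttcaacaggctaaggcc
Il1rl1 (chr1:40429320-40429569, plus strand): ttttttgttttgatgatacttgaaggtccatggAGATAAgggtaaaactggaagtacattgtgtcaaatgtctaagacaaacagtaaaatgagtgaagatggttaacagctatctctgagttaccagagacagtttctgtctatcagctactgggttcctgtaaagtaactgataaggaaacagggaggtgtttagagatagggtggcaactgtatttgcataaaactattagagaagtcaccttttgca
Retnla (chr16:48842359-48842608, plus strand): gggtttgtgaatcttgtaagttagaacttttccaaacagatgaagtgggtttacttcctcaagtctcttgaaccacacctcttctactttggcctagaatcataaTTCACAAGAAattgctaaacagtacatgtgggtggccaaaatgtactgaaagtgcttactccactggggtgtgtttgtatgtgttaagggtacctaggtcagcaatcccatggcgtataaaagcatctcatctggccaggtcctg
Il13 held the GATA letters with their first base 81 bases before the start, and Il1rl1 held them 217 bases before it. Retnla held the STAT6 letters 145 bases before its start. The window of Il5 held neither. A second annotated start of Il1rl1 had TTATCT 103 bases before it. The windows of both starts of Nmur1 and those of Igf1 and Mrc1 held neither set of letters. For these genes too, the Hoil1-/- libraries all lay above the controls. The window of Il17rb also held neither set, and the 4 genes shown were chosen after the matches were known. On either strand, the GATA letters occurred in 9.99% and the STAT6 letters in 5.85% of the 32851 windows of this length, so the matches are only a description of these letters.

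Several genes of alternatively activated macrophages, the state induced by IL-4 and IL-13, were higher in each Hoil1-/- library. Retnla, which encodes the secreted RELMα, was at 1.09, 0.468 and 0.484 CPM in Hoil1+/+ and at 22.7, 13.4 and 14.6 CPM in Hoil1-/- libraries (log2 fold change 4.61, SE 1.30; unadjusted p = 0.0043, edgeR quasi-likelihood). Ccl24, an eotaxin that draws eosinophils, was at 2.27, 1.28 and 2.35 CPM against 22.1, 21.5 and 24.7 CPM (log2 fold change 3.53, SE 0.67; unadjusted p = 0.00021, edgeR quasi-likelihood). Neither gene overlapped between the groups, library 24 included, and Ccl24 was called by the exactTest and the likelihood ratio test.

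The lectins of these macrophages lay the same way. Clec10a was at 12.8, 9.17 and 15.6 CPM in Hoil1+/+ and at 33.0, 49.0 and 52.7 CPM in Hoil1-/- libraries. Mgl2, its close paralog, with which it could share reads, was at 68.5, 42.5 and 74.9 CPM against 176, 137 and 317 CPM. Mrc1, the mannose receptor CD206, was at 132, 106 and 188 CPM against 284, 326 and 299 CPM. None of the 3 overlapped between groups, with log2 fold changes of 1.84 (SE 0.48), 1.76 (SE 0.53) and 1.09 (SE 0.41). Others of the list did not separate: Ccl22 and Ccl17, chemokines of dendritic cells and macrophages, had log2 fold changes of -0.23 (SE 0.62) and -0.13 (SE 0.57), and Chil4 had no count. In all, 6 of 13 tested members were higher and 0 lower at an unadjusted p under 0.05, against 2.15% and 2.32% of all genes, 5 were higher without overlap, against 4.88%, and the median was 1.09, or 1.07 without library 24.

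Further macrophage genes were among those with the smallest p in the table. Siglec1, the sialoadhesin CD169, was at 25.5, 31.4 and 44.2 CPM in Hoil1+/+ and at 135, 158 and 117 CPM in Hoil1-/- libraries (log2 fold change 2.02, SE 0.46). Igf1, a growth factor of tissue macrophages and stroma, was at 8.89, 7.20 and 9.66 CPM against 44.6, 44.1 and 47.9 CPM (log2 fold change 2.41, SE 0.56). The 3 Hoil1-/- libraries were close to each other for both. Adgre1, which encodes F4/80, was at 159, 158 and 202 CPM against 320, 254 and 544 CPM, while C1qa was at 961, 694 and 1252 CPM against 1418, 1197 and 2809 CPM and overlapped. The summed level of 18 resident macrophage markers was 8170 to 13894 CPM in Hoil1+/+ and 13219 to 19119 CPM in Hoil1-/- libraries, with none at 0 in the whole group. Their median log2 fold change was 0.81, and 0.50 without library 24, in which the summed level was highest. Monocyte markers had a median of 1.02 that came to 0.45 without it. Fcgr1 was the 1 of 11 that was higher at an unadjusted p under 0.05 (2.15% of all genes), at 50.3, 35.1 and 51.5 CPM against 70.8, 75.3 and 193 CPM.

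**Figure D2:**
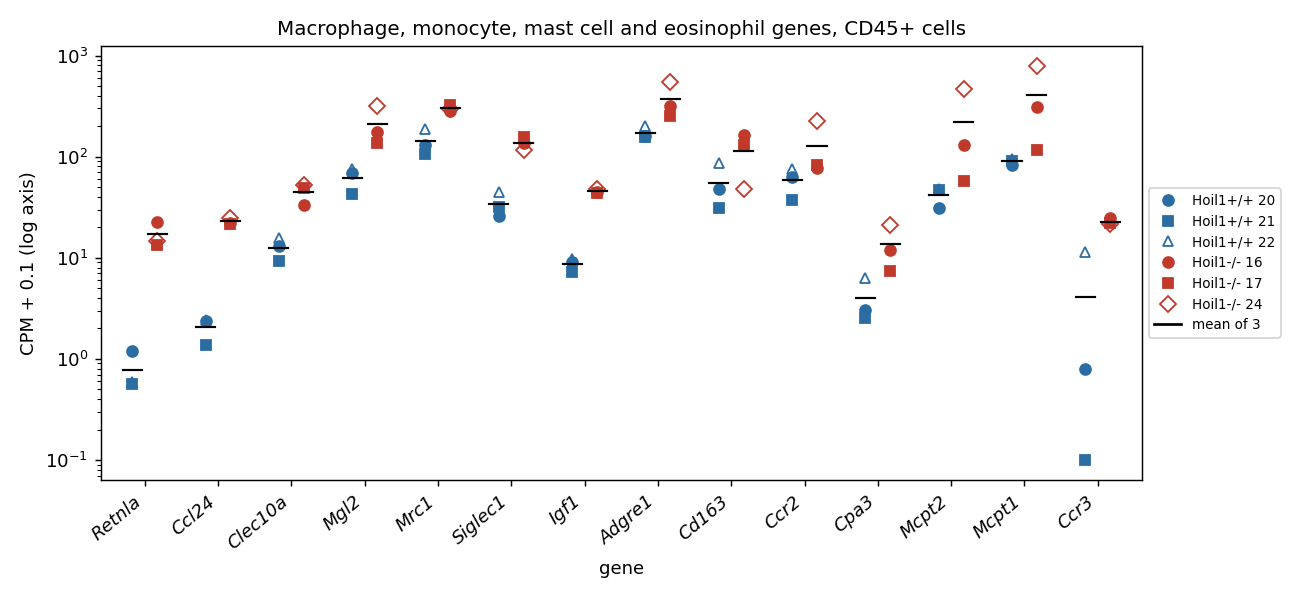
CPM (plus 0.1, log axis) of macrophage, monocyte, mast cell and eosinophil genes in the 6 libraries; blue is Hoil1+/+, red is Hoil1-/-, and bars are means of 3. Retnla and Ccl24 are separated in every library, whereas Mcpt2 and Mcpt1 in library 17 lie close to the controls.

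Mast cell transcripts were higher, to unlike degrees in the 3 mice. Mcpt1, a chymase of mucosal mast cells, was at 83.3, 90.8 and 95.5 CPM in Hoil1+/+ and at 309, 115 and 794 CPM in Hoil1-/- libraries (log2 fold change 2.18, SE 0.65). Mcpt2, a related mucosal chymase with which it could share reads, was at 31.1, 47.1 and 47.5 CPM against 129, 57.6 and 470 CPM. Cpa3, the mast cell carboxypeptidase, was at 2.94, 2.46 and 6.23 CPM against 11.9, 7.35 and 21.1 CPM. Library 24 was the highest and library 17 the nearest to controls in each, and the log2 fold changes of Mcpt1 and Mcpt2 dropped from 2.18 and 2.38 to 1.21 and 1.13 without library 24. All 12 tested members of the list had a log2 fold change above 0, as did 48.0% of all genes, and 4 were higher at an unadjusted p under 0.05 (2.15% of all genes), among them Cma1, which was seen in library 17 alone at 2.94 CPM, while Tpsab1, Prss34 and Mrgprb2 had no count. The summed level was 188 to 224 CPM in Hoil1+/+ and 303 to 1343 CPM in Hoil1-/- libraries.

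Eosinophil markers had a median log2 fold change of 1.53, or 1.36 without library 24. Ccr3, the eotaxin receptor, was at 0.691, 0 and 11.3 CPM in Hoil1+/+ and at 24.7, 21.9 and 21.4 CPM in Hoil1-/- libraries. Cebpe, a granulocyte factor, was at 1.30, 0 and 4.81 CPM against 12.7, 18.5 and 18.6 CPM. In both genes control library 22 was nearest to the Hoil1-/- libraries. The granule genes Epx, Ear1 and Ear6 had no count in any library, and Prg2 overlapped, with a log2 fold change of 0.36 (SE 0.67). Of 9 tested members, 3 were higher at an unadjusted p under 0.05, where 2.15% of all genes were, and 1 without library 24, and the summed level was 140 to 197 CPM against 267 to 285 CPM.

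T cell transcripts were lower in all Hoil1-/- libraries and also in 1 of 3 controls. Cd8a was at 499, 416 and 38.2 CPM in Hoil1+/+ libraries 20, 21 and 22, and at 97.6, 76.9 and 46.1 CPM in Hoil1-/- libraries 16, 17 and 24. Cd3d was at 141, 103 and 27.5 CPM against 37.3, 32.6 and 18.8 CPM. Trdc, the constant region of the γδ T cell receptor that many intraepithelial lymphocytes carry, was at 251, 202 and 24.1 CPM against 43.3, 39.3 and 30.5 CPM. Library 22 was thus within or below the Hoil1-/- range for all 3 genes, and the difference rested on libraries 20 and 21, which were also the 2 controls with Xist counts and, at 9.7 weeks, the oldest. The summed level of 18 T cell markers was 3924, 3358 and 835 CPM against 1406, 1286 and 681 CPM. All 18 had a log2 fold change below 0 (median -1.17), where 48.0% of all genes had one above 0. Of the 18, 2 were lower at an unadjusted p under 0.05 (2.32% of all genes) and none without overlap (6.54%). For 16 genes of intraepithelial and cytotoxic T cells the median was -1.84, with 3 lower at an unadjusted p under 0.05 (2.32% of all genes). Prf1, the pore-forming perforin, was at 62.5, 53.4 and 15.7 CPM against 16.9, 15.4 and 1.72 CPM. Without library 24 neither T cell list had a member at an unadjusted p under 0.05.

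None of the 18 B cell markers separated the groups of 3. Still, 17 had a log2 fold change below 0, where 48.0% of all genes had one above 0. Their median was -0.91, or -0.54 without library 24, and 1.05 in the comparison with intact epithelial Il4ra. The summed level of 18 B cell markers was 1240, 2731 and 5349 CPM in Hoil1+/+ and 1514, 1794 and 1738 CPM in Hoil1-/- libraries, with control library 22 highest. Ighm was at 406, 939 and 2882 CPM against 509, 501 and 858 CPM (log2 fold change -1.18, SE 0.60). Rgs13, expressed by germinal center B cells and by tuft cells, was at 0.158, 2.84 and 7.61 CPM in Hoil1+/+ libraries and had no count in any Hoil1-/- library, at least 89.3-fold lower by the floor of 3 counts over the group. Plasma cell genes had a median of 0.57 that came to -0.10 without library 24, in which immunoglobulin genes took 33.6% of counts against 12.1% to 21.5% in the other 5.

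**Figure D3:**
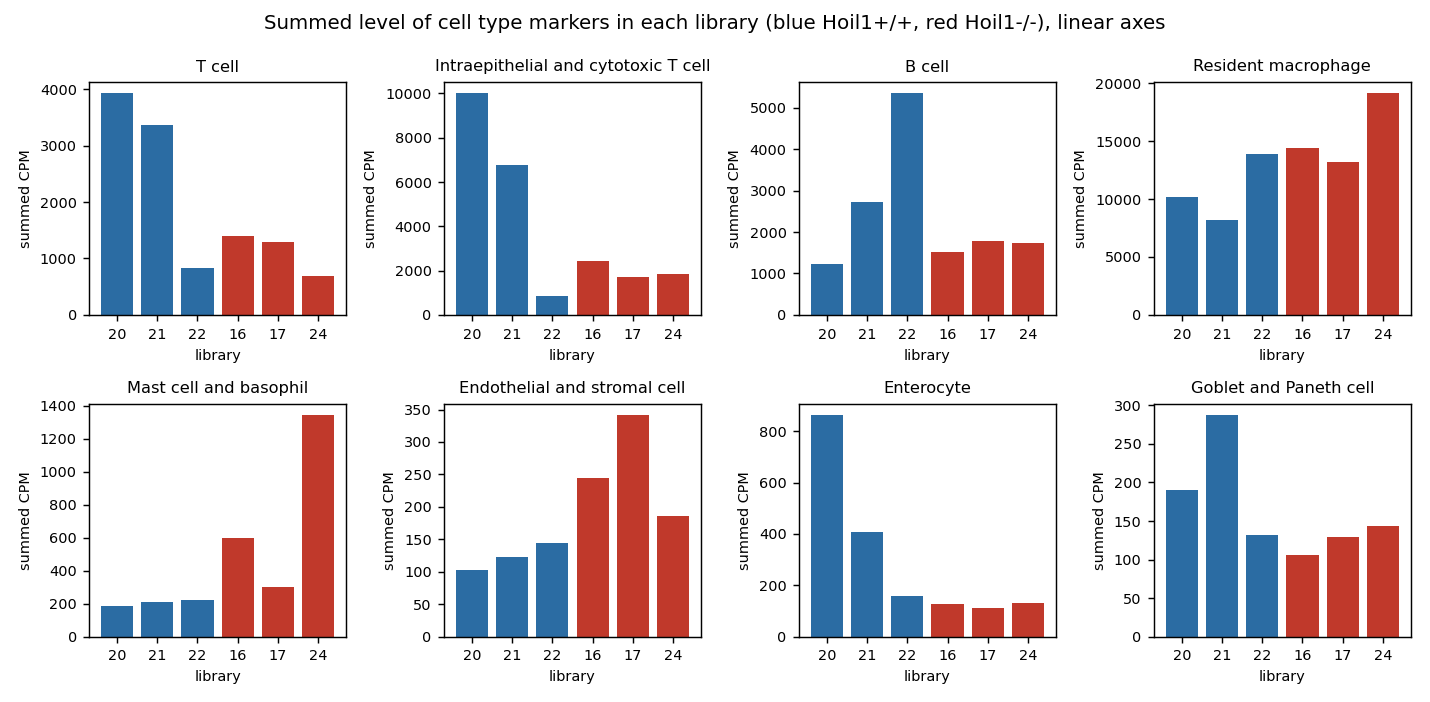
Summed CPM of the markers of 8 cell types in each library (bars, linear axes from 0; blue Hoil1+/+, red Hoil1-/-). T cell, intraepithelial and enterocyte markers are high in libraries 20 and 21 and low in library 22 and in the 3 Hoil1-/- libraries, and mast cell markers reach 1343 CPM in library 24.

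Enterocyte transcripts, which a CD45+ sort should leave at low levels, were lower in the Hoil1-/- libraries. Apoa4, an apolipoprotein of absorptive enterocytes, was at 87.3, 17.5 and 1.42 CPM in Hoil1+/+ and at 0.628, 0 and 0 CPM in Hoil1-/- libraries. Fabp2, the intestinal fatty acid binding protein, was at 98.5, 54.8 and 5.32 CPM against 3.67, 7.73 and 4.74 CPM. Control library 22 was again near the Hoil1-/- libraries. Muc3, Cdhr5 and Ap1m2, of the enterocyte brush border and basolateral sorting, had no count in any Hoil1-/- library and were at 9.40, 4.55 and 0.909 CPM, at 20.5, 14.2 and 2.63 CPM and at 2.69, 3.46 and 1.13 CPM in the controls, which makes them at least 125-fold, 314-fold and 61.3-fold lower. All 17 enterocyte markers had a log2 fold change below 0 (median -3.30). Of these, 9 were lower at an unadjusted p under 0.05, where 2.32% of all genes tested were. There was no overlap for 7, where 6.54% of all genes tested were lower without overlap. Apob and Sis were at 0 in each Hoil1-/- library.

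The summed enterocyte level was 863, 408 and 159 CPM in Hoil1+/+ libraries 20, 21 and 22, and 129, 111 and 131 CPM in Hoil1-/- libraries 16, 17 and 24. It ran with the T cell and intraepithelial levels of the same libraries, and its part in the differences of those lists was not tested. Goblet and Paneth cell genes went both ways. Of the 14 tested, 3 were lower at an unadjusted p under 0.05 (2.32% of all genes) and 0 without library 24. Fcgbp was lower without overlap (6.54% of all genes), and the Paneth cell genes Defa24, Ang4 and Mmp7 were higher without overlap (4.88%). Tff3, the goblet cell trefoil factor, was at 25.7, 37.1 and 4.96 CPM against 3.80, 6.32 and 2.82 CPM, and the goblet resistin Retnlb had no count. Of the tuft cell genes, Il25 and Chat had no count and Dclk1 was at 0 in all but library 21, where it was at 0.187 CPM. Of the 12 tested, 2 were higher (2.15% of all genes) and 1 lower (2.32%) at an unadjusted p under 0.05. Without overlap, 2 were higher (4.88%) and 2 lower (6.54%). The median was 0.50. Without library 24 it was 0.67, and 6 were higher without overlap (15.0% of all genes). The list shares Il17rb with the ILC2 receptors and Rgs13 with germinal center B cells.

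Stromal transcripts were higher in the Hoil1-/- libraries. Col3a1, a fibrillar collagen chain, was at 4.22, 8.57 and 4.25 CPM in Hoil1+/+ and at 24.4, 46.6 and 25.0 CPM in Hoil1-/- libraries (log2 fold change 2.50, SE 0.66). Col1a2 was at 4.98, 2.93 and 4.78 CPM against 20.1, 25.9 and 15.1 CPM. Col6a1, a microfibrillar collagen chain, was at 1.04, 1.59 and 3.11 CPM against 12.8, 16.4 and 13.7 CPM. Of 20 endothelial and stromal markers, 19 had a log2 fold change above 0, against 48.0% of all genes, 8 were higher without overlap, against 4.88%, and 4 at an unadjusted p under 0.05, against 2.15%. The median was 1.78, or 1.95 without library 24. Their summed level was 103 to 145 CPM against 187 to 341 CPM, low beside Ptprc, and Gfap, of enteric glia, had a count in library 17 alone. Igf1, named above with the macrophages, is also made by fibroblasts, and the part of stromal cells in its difference was not tested.

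Within LUBAC, Rbck1 was accompanied by a smaller difference in 1 partner. Sharpin was at 31.5, 33.7 and 37.6 CPM in Hoil1+/+ and at 20.8, 23.8 and 19.6 CPM in Hoil1-/- libraries, with no overlap (log2 fold change -0.68, SE 0.23; unadjusted p = 0.0114, edgeR quasi-likelihood). Rnf31, which encodes HOIP, was at 42.8, 53.6 and 51.6 CPM against 51.4, 49.5 and 43.2 CPM (log2 fold change -0.04, SE 0.23). Otulin, the enzyme that cuts linear chains, was at 46.3, 61.8 and 61.6 CPM against 46.5, 38.6 and 38.2 CPM and overlapped. Among the 24 members of the list, Sharpin and the targeted gene Rbck1 were lower at an unadjusted p under 0.05, where 2.32% of all genes were. None was higher, where 2.15% of all genes were.

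Genes under NF-κB did not separate the groups once library 24 was counted. Tnfaip3, the inhibitor A20, was at 693, 848 and 841 CPM in Hoil1+/+ libraries, at 1100 and 1153 CPM in Hoil1-/- libraries 16 and 17, and at 87.0 CPM in library 24. Nfkbia, the inhibitor IκBα, was at 397, 395 and 625 CPM against 767, 896 and 584 CPM. Of 24 NF-κB genes, 1 was higher without overlap with library 24 in the comparison and 16 without it, where 4.88% and 15.0% of all genes were; the median moved from 0.31 to 0.68. None of the 24 passed an unadjusted p under 0.05 with library 24, and 4 did without it, where 4.48% and 4.29% of all genes did in either direction. Genes of TNF receptor death and necroptosis had a median of 0.20, or 0.07 without library 24. Of the 19 tested, 0 were at an unadjusted p under 0.05 with it and 1 without it.

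Interferon-stimulated genes were higher more often than lower. Iigp1, an immunity-related GTPase, was at 9.11, 5.39 and 5.97 CPM in Hoil1+/+ and at 17.2, 16.8 and 24.4 CPM in Hoil1-/- libraries (log2 fold change 1.51, SE 0.41). Ifi44 was at 4.52, 2.37 and 3.93 CPM against 15.4, 10.5 and 13.3 CPM. Irf7, the factor that amplifies type I interferon, was at 47.9, 51.6 and 67.6 CPM against 77.2, 100.4 and 144 CPM. Of 30 genes, 27 had a log2 fold change above 0, where 48.0% of all genes tested did. Without overlap, 9 were higher (4.88% of all genes) and 1 was lower (6.54%). At an unadjusted p under 0.05, 6 were higher (2.15% of all genes) and 0 lower (2.32%). The median was 0.54, and 0.51 without library 24.

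Other lists held few members that separated. Il33 was at 0.314 and 1.14 CPM in Hoil1-/- libraries 16 and 17 and without count elsewhere, and Il25 and Tslp were without counts. In the list of regulatory cytokines that holds these genes, 1 member of 18 was higher and 1 lower at an unadjusted p under 0.05. Slc2a1, the glucose transporter under hypoxia-inducible factors, was at 59.8, 70.9 and 48.7 CPM against 94.5, 119 and 70.1 CPM, and 2 of 18 genes of that pathway were higher at an unadjusted p under 0.05. Glycogen metabolism, which HOIL1 deficiency disturbs in people, had a median of 0.05 over 20 genes. The medians of the remaining lists depended on library 24. NK cell and ILC1 genes had a median of -0.87 with it and -0.31 without, ILC3 genes -0.38 and 0.09, regulatory and helper T cell genes -0.25 and 0.14, and dendritic cell genes -0.27 and -0.47. Neutrophil genes had 0.49 with it and 0.15 without, and MHC class II genes 0.39 and 0.04. Cell cycle genes had 0.20 and -0.41, immediate-early and heat shock genes -0.19 and -0.08, and genes of IL-4 and IL-13 receptor signaling -0.21 and 0.07. At most 3 members of any of these lists passed an unadjusted p under 0.05 in 1 direction, where 2.15% of all genes were higher and 2.32% lower.

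**Figure D4:**
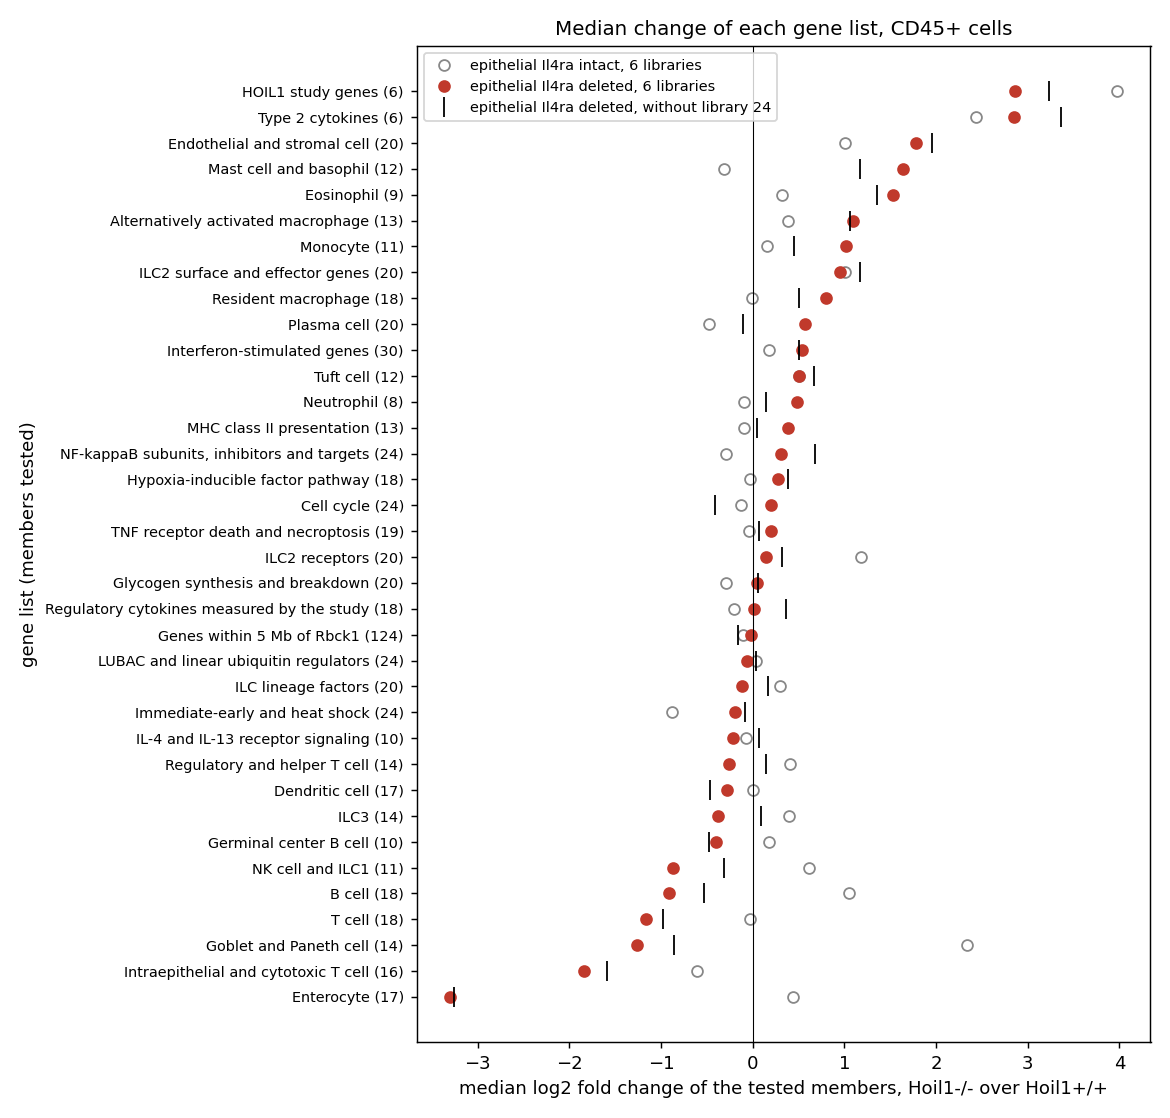
Median log2 fold change (Hoil1-/- over Hoil1+/+) of the tested members of each gene list in CD45+ cells; red dots are the Il4raΔIEC comparison with 6 libraries, black ticks the same without library 24, and grey rings the comparison with intact epithelial Il4ra. Type 2 cytokines are at 2.85 and enterocyte markers at -3.30 in the Il4raΔIEC comparison.

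A few genes outside the lists had small p, some of them with narrow groups. Them6, of little known function, was at 21.9, 15.99 and 21.8 CPM in Hoil1+/+ and at 5.71, 7.35 and 6.22 CPM in Hoil1-/- libraries (log2 fold change -1.63, SE 0.30; unadjusted p = 0.000193, edgeR quasi-likelihood). Bola1 and Nubp1, both of iron-sulfur protein assembly, were at 7.55, 8.29 and 9.40 CPM against 3.45, 1.198 and 1.84 CPM and at 34.2, 36.1 and 41.1 CPM against 15.98, 19.1 and 17.1 CPM. Tmem170b was at 21.5, 18.7 and 23.6 CPM against 39.9, 39.1 and 46.8 CPM. Prkar1b, a regulatory subunit of protein kinase A, was at 6.13, 5.17 and 6.50 CPM against 17.95, 12.7 and 23.6 CPM, and Plxdc2 at 22.4, 25.6 and 29.3 CPM against 61.1, 58.0 and 49.1 CPM. Guca2b, Prap1, Slc5a11 and Acot6 were the other genes among the 12 with the smallest p that were lower, and 3 of them had no count in Hoil1-/- libraries, at least 159-fold (Prap1), 36.1-fold (Slc5a11) and 50.7-fold (Acot6) lower. Guca2b, the intestinal peptide uroguanylin, was at 12.7, 8.73 and 1.79 CPM against 0.0314, 0 and 0 CPM. In Hoil1+/+ libraries, Prap1 was at 13.1, 5.175 and 0.601 CPM and Slc5a11 at 1.57, 2.31 and 0.411 CPM. The controls were thus spread widely for Guca2b, Prap1 and Slc5a11, with library 22 lowest, as for the enterocyte genes above.

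Genes near the targeted locus were examined because a knockout allele can carry flanking DNA from another strain. Of the 273 genes within 5 Mb of Rbck1, 124 were tested, 2 were higher and 3 lower at an unadjusted p under 0.05, a share close to the 4.48% of all genes, and the median was -0.02. Without library 24, 0 were higher and 1 lower, and the median was -0.16, against -0.06 over all genes. Cd93, a receptor of monocytes and endothelium, was at 87.5, 79.9 and 142 CPM in Hoil1+/+ and at 168, 170 and 220 CPM in Hoil1-/- libraries. Myl9, a smooth muscle myosin light chain, was at 2.20, 1.62 and 2.77 CPM against 4.39, 8.33 and 16.9 CPM. The lower genes were Acss2, Napb and 6430550D23Rik, the last 2 with no count in Hoil1-/- libraries and under 1 CPM in every control.

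The same Hoil1 effect was fitted in the 6 CD45+ libraries with intact epithelial Il4ra (Il4raf/f), which shared no control with the present comparison and 1 of which, library 13, was also left out by the study. The ILC2 genes Nmur1, Klrg1 and Il13 and the macrophage gene Retnla had log2 fold changes above 0 in both. The study chose Nmur1 and Klrg1 for a difference in both backgrounds on libraries of this set. Their shared direction is therefore not independent evidence. Nmur1 had 2.93 (SE 0.68) in Il4raΔIEC and 4.12 (SE 0.72) in Il4raf/f cells, Klrg1 2.27 (SE 0.50) and 3.34 (SE 0.52), Il13 3.87 (SE 1.38) and 3.94 (SE 1.39), and Retnla 4.61 (SE 1.30) and 4.18 (SE 1.26). The difference between backgrounds had an unadjusted p of 0.213, 0.141, 0.966 and 0.791 for these genes (edgeR quasi-likelihood interaction). Such values do not show that the backgrounds act alike. Retnla was at 0.533, 2.92 and 8.99 CPM in Hoil1+/+Il4raf/f libraries 12, 18 and 19. In Hoil1-/-Il4raf/f libraries 13, 14 and 15 it was at 206, 9.71 and 9.07 CPM. Its Il4raf/f value thus rested largely on library 13, and library 15 was just above control library 19.

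Mcpt2, Cpa3, Fabp2, Tff3 and Sharpin had log2 fold changes of opposite sign in the backgrounds, and were picked for a small interaction p after their values were seen. Mcpt2 had a log2 fold change of 2.38 (SE 0.67) in Il4raΔIEC and -0.70 (SE 0.64) in Il4raf/f cells, and Cpa3 had 1.79 (SE 0.49) and -0.49 (SE 0.48). Fabp2 had -3.30 (SE 0.90) and 0.75 (SE 0.82), and Tff3 -2.39 (SE 0.87) and 2.14 (SE 0.86). Sharpin had -0.68 (SE 0.23) and 0.43 (SE 0.23). These values, and the interaction p-values that follow, include library 24. Without it, the Il4raΔIEC log2 fold change of Mcpt2 was smaller, as given above. The interaction had an unadjusted p of 0.00593 for Mcpt2, 0.00608 for Cpa3, 0.00569 for Fabp2, 0.00319 for Tff3 and 0.00489 for Sharpin (edgeR quasi-likelihood). None passed adjustment: 0 of 16060 genes were called for the interaction by edgeR's quasi-likelihood test, with 703 (4.38%) at an unadjusted p under 0.05, while its likelihood ratio test called 25 and DESeq2 89.

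**Figure D5:**
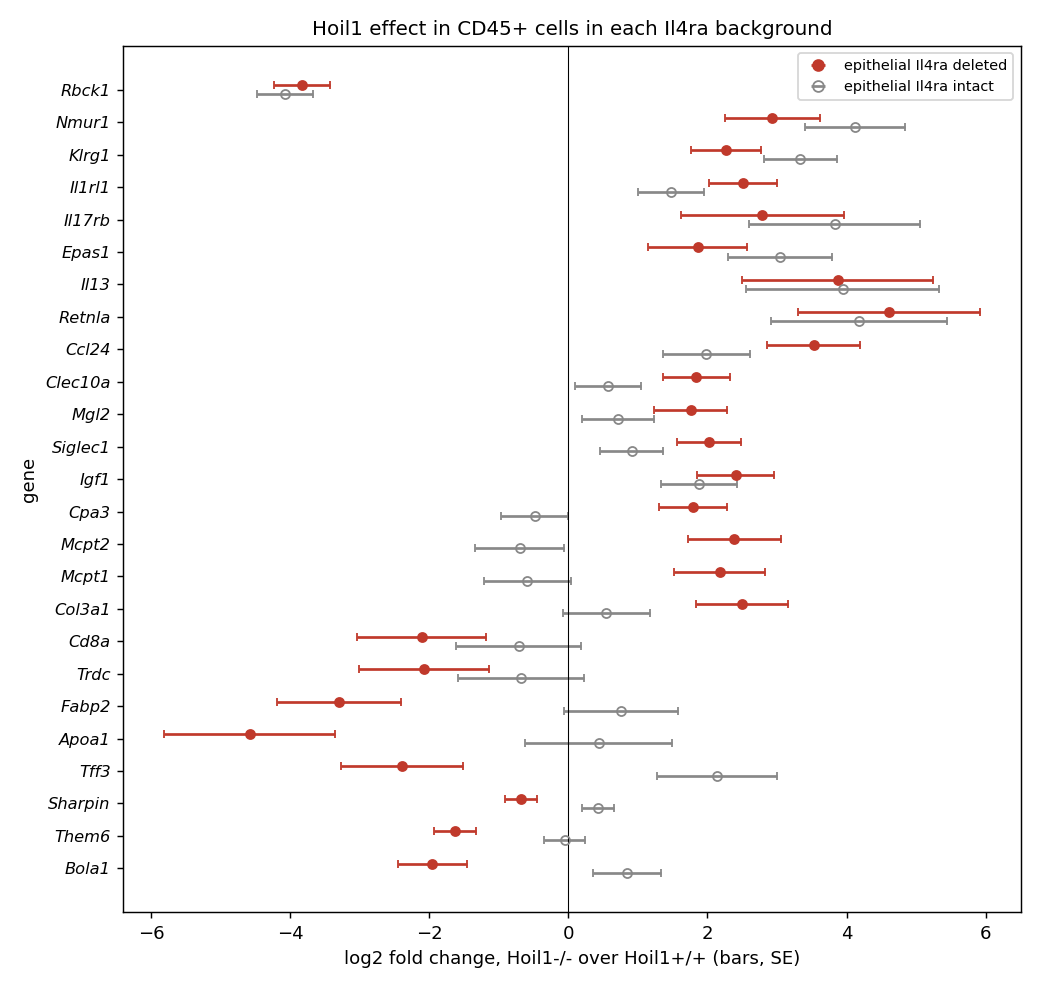
Log2 fold change (Hoil1-/- over Hoil1+/+, bars are SE) of 25 genes in CD45+ cells with epithelial Il4ra deleted (red) and intact (grey rings). Nmur1, Klrg1, Il1rl1, Il17rb, Epas1 and Il13 lie above 0 in both, and Mcpt2, Cpa3, Fabp2 and Tff3 lie on opposite sides. Nmur1, Klrg1, Il17rb and Epas1 were chosen by the study for a difference in both backgrounds.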

How the data were processed

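CD45+ cells of the ileum were sorted, and polyadenylated RNA was sequenced, for 3 mice of each genotype. The authors deposited raw read counts per gene, one table for the series, made by trimming with cutadapt, alignment to mm10 (GRCm38) with STAR and counting with featureCounts; versions and the counting and strand settings are not given in the sources used here. Of 39056 genes, 38872 were matched to GENCODE M21 by identifier. Groups came from the labels. Counts were filtered (filterByExpr, minimum count 10, minimum total 15), scaled by TMM and fitted with edgeR 4.0.16 (R 4.3.3) by the quasi-likelihood test over all 12 CD45+ libraries with 1 mean per genotype. This kept library 24, which the study had left out, and Benjamini-Hochberg adjustment ran over all genes tested. The procedure was tested on simulated data. The quasi-likelihood model was used as the main test, and the study's exactTest, DESeq2 1.42.0, limma 3.58.1 and other library sets, filters and covariates were alternatives. CPM use TMM-scaled totals. Totals ran from 14938629 to 63184034 counts, and floors and bounds cover counting error only. No 2 libraries held identical counts.

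Genes named in the text were Rbck1 and the 6 genes the study singled out, genes past the threshold, the 12 genes in each direction with the smallest unadjusted p among genes whose groups did not overlap with a mean of at least 1 CPM in 1 group, excluding gene models and immunoglobulin or T cell receptor variable genes, up to 4 members of each list with the smallest p and its most abundant members, and genes within 5 Mb of Rbck1 with an unadjusted p under 0.05. A few further list members were named after their values were seen, such as Il4, Areg, Gata3, Tnfaip3 and the markers without counts. Members and gene lists were chosen with earlier results of these data known. Promoter sequences are from RefSeq (GRCm38.p6).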

Additional observations from a re-analysis of the deposited data

How the results depend on the processing

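No called gene or count reversed in direction under the alternatives run. The 1 gene called by edgeR's quasi-likelihood test became 0 with the 10 CD45+ libraries the authors kept, with the 6 Vil1cre libraries alone, with Xist as a covariate, and, an alternative chosen after seeing the data, with the Vil1cre libraries without 24. It became 2 with limma's voom, 11 with exactTest, 21 under edgeR's likelihood ratio and 97 in DESeq2. Leaving out 1 library at a time gave 0 to 2 calls, with 0 without Hoil1-/- libraries 17 or 24 or Hoil1+/+ libraries 20 or 21, and 2 (Rbck1 and Igf1) without the Hoil1-/-Il4raf/f library 13. The log2 fold change of Rbck1 was -3.71 with the authors' libraries (adjusted p = 0.115), -3.86 with the 6 libraries (0.157), -3.81 with Xist (0.0545) and -3.70 with the Vil1cre libraries without 24 (0.249), all by edgeR, and -4.29 to -3.62 over the libraries left out in turn, of which Hoil1-/- 17 (-3.62; adjusted p = 0.118) and 24 (-3.71; 0.126) and Hoil1+/+ 20 (-3.78; 0.0578) and 21 (-3.81; 0.0572) ended its call in edgeR. The difference between Il4ra backgrounds had 0 calls, 25 under the likelihood ratio and 89 in DESeq2. No other filter, scaling or age covariate moved these counts. No paired analysis was possible because the labels do not say which mice shared a litter or a sort day. With 3 mice a group, the smallest adjusted p after that of Rbck1 was 0.479 in edgeR, and the depth of library 17 limits genes under 0.163 CPM. Over the named genes and alternatives, 614 values stayed on their side of the threshold, 50 passed it that had not and 8 lost it. Of the medians of gene lists, 855 moved by less than the spread between replicates and 33 by more. Without library 24, the medians of the plasma cell, cell cycle, LUBAC, ILC factor, regulatory and helper T cell, ILC3 and IL-4 and IL-13 receptor signaling lists changed sign.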

Other observations

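Over both Il4ra backgrounds, 23 of 16060 genes (0.143%) were higher in all 6 Hoil1-/- CD45+ libraries than in all 6 Hoil1+/+ libraries. Another 17 (0.106%) were lower, and this count was chosen after the values were seen. How many genes would separate in this way without an effect of Hoil1 was not tested. The genes named here are therefore only a description of these libraries. The higher genes included the ILC2-associated Il5, Nmur1, Il1rl1, Klrg1, Calca and Pcsk1, the macrophage genes Retnla and Mmp12, and the interferon-stimulated Irf7, Parp9 and Ifi27l2a. Of these, the study had chosen Il5, Nmur1 and Klrg1 for a difference in both backgrounds on libraries of this set. Clec3b, which encodes tetranectin, had log2 fold changes of 2.49 in Il4raΔIEC and 3.19 in Il4raf/f cells. Chdh, the choline dehydrogenase gene beside Il17rb on chromosome 14, had 2.31 and 3.38, and the counting settings that would separate overlapping transcripts are not given. Liph, a phospholipase gene, had 2.04 and 3.34. In Il4raf/f cells, Clec3b was at 15.0, 2.95 and 1.42 CPM in Hoil1-/- libraries 13, 14 and 15. It was at 1.00, 0.738 and 0.372 CPM in Hoil1+/+ libraries 12, 18 and 19. Library 13, which the study left out, was thus far above the other Hoil1-/- libraries for Clec3b, as it was for Retnla.

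The lower genes included Rbck1 and Acot6, an acyl-CoA thioesterase gene on chromosome 12. Acot6 was at 3.01, 1.96 and 1.06 CPM in the Hoil1+/+Il4raΔIEC libraries and at 0.959, 0.920 and 1.73 CPM in the Hoil1+/+Il4raf/f libraries, and it had no count in any of the 6 Hoil1-/- CD45+ libraries. Mboat2, a lysophospholipid acyltransferase gene, had log2 fold changes of -3.72 and -5.58, and Lipt1, which attaches lipoate to mitochondrial enzymes, had -2.82 and -4.69.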
